A study of Mus musculus with 12 samples.

Results

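The 9 mouse genes Narf, Mkks, Slmap, Usp31, Cradd, Srbd1, Top2a, Evi5l and Khsrp lie at the highest HIF1A and ARNT binding sites of N1E115 cells at 20% O2, out of 21631 protein-coding genes annotated on chromosomes 1 to 19 and X. They were chosen by the readout itself. For each antibody, regions with a peak in both lists at 20% O2 were ordered by the mean percentile of the peak score in the 2 lists, and the genes at the first 5 regions were taken. Narf came first for both antibodies. For HIF1A the next were Mkks, Slmap, Usp31 and Cradd. For ARNT the next were Srbd1, then Top2a, Evi5l and Khsrp. Their NCBI gene IDs are 67608 for Narf, 59030 for Mkks, 83997 for Slmap, 76179 for Usp31, 12905 for Cradd, 78586 for Srbd1, 21973 for Top2a, 213027 for Evi5l and 16549 for Khsrp. At the edge of the choice, the Cradd region had a mean percentile of 99.78 for HIF1A and the next region, at Tpgs1, 99.76. The Khsrp region had 99.85 for ARNT and the next, at Sp1, 99.83. The high values at 20% O2 are therefore a description of how the genes were picked and carry no test.

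The sites come from ChIP-seq, in which DNA bound by a protein is pulled down with an antibody and sequenced. The cells were N1E115, a mouse neuroblastoma line that the labels call NOS1+. Cells were kept for 3 days at 4% O2 or at 20% O2, both with 5% CO2. Each antibody had 2 samples at 4% O2 and 2 at 20% O2, and each oxygen level had inputs 4 and 5. All groups share the line and the CO2 level, no other agent or genotype is labelled, and the peak lists hold no expression values by which the cell type could be checked. Whether the replicates were separate cultures is not labelled.

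HIF1A and ARNT are the subunits of HIF-1, which binds DNA at hypoxia response elements with the core ACGTG or GCGTG. HIF1A is degraded when oxygen is plentiful and builds up when it is scarce, whereas ARNT is present at either oxygen level and also pairs with the aryl hydrocarbon receptor and other proteins of its family. A peak of one antibody that the other lacks is thus a site where the peak lists do not show both subunits.

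The lists differ in length and form. For HIF1A, replicates 1 and 2 gave 42701 and 13655 peaks at 4% O2, against 5393 and 13386 at 20% O2. For ARNT they gave 24942 and 9920 peaks at 4% O2, against 7252 and 1808 at 20% O2. Both HIF1A replicate 2 lists give positions of 1 bp, read here as summits and widened by 75 bp on either side for overlaps. The other 6 lists give intervals. Per the file headers the 4 replicate 1 samples shared a sequencing lane. Percentiles and ranks below are places within one list, with 100 for the highest percentile and 1 for the highest rank, so values from lists of different length show no change between them.

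Sequence of the leading sites, the highest region of 20% O2 at each gene, is shown where RefSeq promoters (GRCm38.p6, the same build as mm10, 250 bases before to 50 after a gene's start) overlap them by at least 100 bases. Of the 9 genes 8 matched a promoter by symbol and Srbd1 did not, and the Slmap promoter overlapped its site by less. Motifs were searched on both strands, and capitals mark each match. The HIF-1 cores were ACGTG and also GCGTG. The box bound by NF-Y was CCAAT. The core bound by YY1 was AANATGGC, with N for any base. The cyclic AMP response element was TGACGTCA. ACGTG matches both strands of the E-box CACGTG, which is one palindrome and not a pair of sites. All motifs were chosen with the peak values known, and AANATGGC after these sequences were read. A match describes the letters and is not a shown binding site. Sequences run 5′ to 3′ on the gene's strand.

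The first 4 lie at sites led by HIF1A. The Mkks site overlaps a promoter of the neighbouring gene Slx4ip, on the opposite strand, and the promoter of Mkks itself lies at a second HIF1A region.
Usp31, chr7:121707405-121707672, minus strand: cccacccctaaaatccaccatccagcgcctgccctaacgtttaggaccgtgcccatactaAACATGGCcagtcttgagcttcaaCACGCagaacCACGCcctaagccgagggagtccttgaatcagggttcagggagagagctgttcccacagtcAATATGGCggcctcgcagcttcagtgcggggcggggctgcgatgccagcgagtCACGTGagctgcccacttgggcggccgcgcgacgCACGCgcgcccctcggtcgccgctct
Cradd, chr10:95324088-95324242, minus strand: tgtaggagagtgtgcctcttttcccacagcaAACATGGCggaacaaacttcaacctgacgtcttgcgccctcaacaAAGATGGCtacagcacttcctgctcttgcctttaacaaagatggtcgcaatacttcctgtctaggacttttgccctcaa
Slx4ip, at the leading Mkks site, chr2:136891918-136892217, plus strand: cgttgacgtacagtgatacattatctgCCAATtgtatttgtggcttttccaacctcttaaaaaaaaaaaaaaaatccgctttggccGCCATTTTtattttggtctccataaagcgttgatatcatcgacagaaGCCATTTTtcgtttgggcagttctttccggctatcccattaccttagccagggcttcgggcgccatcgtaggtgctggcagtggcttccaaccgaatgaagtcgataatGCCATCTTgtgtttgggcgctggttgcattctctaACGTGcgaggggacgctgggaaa
Mkks, at its other HIF1A site, chr2:136891503-136891656, minus strand: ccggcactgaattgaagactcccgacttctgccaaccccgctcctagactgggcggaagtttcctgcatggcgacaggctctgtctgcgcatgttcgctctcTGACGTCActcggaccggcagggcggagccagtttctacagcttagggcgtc
The next 4 lie at sites led by ARNT, and Narf also led the HIF1A order.
Narf, chr11:121236986-121237278, plus strand: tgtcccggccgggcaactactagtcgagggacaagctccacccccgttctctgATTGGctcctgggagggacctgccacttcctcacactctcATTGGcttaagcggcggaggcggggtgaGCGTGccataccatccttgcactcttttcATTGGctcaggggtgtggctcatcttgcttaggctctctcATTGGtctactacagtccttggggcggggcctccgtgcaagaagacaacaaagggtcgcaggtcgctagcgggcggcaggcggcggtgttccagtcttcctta
Top2a, chr11:99024140-99024439, minus strand: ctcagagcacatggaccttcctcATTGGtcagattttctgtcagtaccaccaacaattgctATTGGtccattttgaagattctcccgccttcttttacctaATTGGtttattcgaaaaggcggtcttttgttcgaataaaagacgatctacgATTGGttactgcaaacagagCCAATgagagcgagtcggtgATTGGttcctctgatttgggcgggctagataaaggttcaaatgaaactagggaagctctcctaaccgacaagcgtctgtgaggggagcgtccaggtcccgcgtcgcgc
Evi5l, chr8:4166317-4166530, plus strand: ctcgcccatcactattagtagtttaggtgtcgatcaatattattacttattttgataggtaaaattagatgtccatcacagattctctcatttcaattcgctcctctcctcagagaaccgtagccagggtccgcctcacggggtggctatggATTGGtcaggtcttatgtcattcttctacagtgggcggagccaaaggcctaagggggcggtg
Khsrp, chr17:57031509-57031757, minus strand: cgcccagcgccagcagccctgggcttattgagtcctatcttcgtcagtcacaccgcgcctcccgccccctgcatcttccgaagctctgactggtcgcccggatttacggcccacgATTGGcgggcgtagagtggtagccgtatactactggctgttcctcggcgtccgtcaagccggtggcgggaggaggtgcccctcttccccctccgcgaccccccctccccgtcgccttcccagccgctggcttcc

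AANATGGC occurred 2 times in the Usp31 stretch, 2 times at Cradd and 3 times in the Slx4ip promoter at the Mkks site. It was in none of the 4 stretches led by ARNT, nor in the stretch at the second Mkks site. Unequal parts of the sites were searched. The stretches held 268 of 268 bp at Usp31, 155 of 211 at Cradd and 300 of 354 at the leading Mkks site. They held 293 of 668 bp at Narf, 300 of 372 at Top2a, 214 of 441 at Evi5l and 249 of 773 at Khsrp. The HIF1A summits at Narf, Evi5l and Khsrp lay outside the printed stretches. The HIF1A summit of 4% O2 replicate 2 lay 26 bp from the middle of the nearest match at Cradd, 40 bp at the Mkks site and 41 bp at Usp31. That of 20% O2 replicate 2 lay 1 bp from the middle of its nearest match at Cradd, 17 bp at the Mkks site and 41 bp at Usp31. At Usp31 the nearest match was not the same one for the 2 summits. Over all 32585 promoters of that length AANATGGC was found in 6.07%. Among promoters outside this set that a region of 20% O2 overlapped by at least 100 bases, it was found in 33.0% of 224 with a HIF1A but no ARNT region, and in 9.96% of 482 with an ARNT but no HIF1A region. It was found in 5.08% of 59 with regions of both antibodies, and in 5.81% of 31808 with neither.

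CCAAT occurred 6 times in the Top2a promoter, whose gene encodes the DNA topoisomerase II of dividing cells. It occurred 4 times in the Narf stretch and 1 time each in those of Evi5l and Khsrp. Of the promoters of genes led by ARNT 4 of 4 held it, and of those led by HIF1A 1 of 4, Mkks. The share of all promoters was 37.6%. Narf was counted only with ARNT, though it came first in the HIF1A order too. The promoters of Mkks and Slmap do not stand for their leading sites. The Slx4ip stretch, which lies at the leading Mkks site, held 1 match and is in neither count. These counts thus do not compare the leading sites of the 2 antibodies. Of the 482 promoters with an ARNT region alone 65.1% held CCAAT, and of the 224 with a HIF1A region alone 43.8%. For promoters, alone means without a region of the other antibody, and a peak in 1 of its lists may still be there. The share was 50.8% of the 59 with both and 37.1% of those with neither. TGACGTCA, present in 1.80% of all promoters, stood in the Mkks promoter, 10 bp from the HIF1A summit of 4% O2 replicate 2 and 27 bp from that of 20% O2. Of the 224 promoters with a HIF1A region alone 23.7% held TGACGTCA, against 4.98% of the 482 with an ARNT region alone, 18.6% of the 59 with both and 1.57% of those with neither. These shares are descriptions, since promoters share base composition and are not replicates.

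The HIF-1 cores were counted in the same promoters, which for Mkks and Slmap do not stand for the leading site. ACGTG or GCGTG was found in 3 of the 8 promoters of the chosen genes, namely Narf, Mkks and Usp31. This is near the 44.0% of all promoters. The Usp31 stretch, the promoter of a ubiquitin-specific protease, held 3 GCGTG matches and 1 CACGTG. One of these GCGTG matches lay 21 bp from the HIF1A summit of 4% O2 and 8 bp from that of 20% O2. The GCGTG of the Mkks promoter lies outside the printed stretch, and the Slx4ip stretch held 1 ACGTG. The Narf stretch held 1 GCGTG, 370 bp from the HIF1A summit at both oxygen levels, and that summit lay outside the RefSeq window. Among promoters outside this set, ACGTG was in 24.6% of those with a HIF1A region alone, 25.7% with an ARNT region alone, 44.1% with both and 19.6% with neither. GCGTG was in 43.8%, 50.6%, 40.7% and 32.2% of these classes, in the same order. A core outside these windows was not searched for.

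Narf encodes a factor that recognizes the tail of prelamin A. Its site (chr11:121236611-121237278, mm10) was centred 292 bp before the gene's start. Its peaks ranked 6 and 8 in the HIF1A lists of 4% O2 and 4 and 1 in those of 20% O2. In the ARNT lists they ranked 10 and 18 at 4% O2, against 1 and 1 at 20% O2. Narf was the single leading site with a peak in all 8 lists, against 6.05% of all 6151 regions of 20% O2. Of the 100 highest regions of each antibody, 21 for HIF1A and 15 for ARNT had one in all 8. Narf stood among the first 18 peaks of every list. The HIF1A replicate 2 summits at the 2 oxygen levels fell on the same base, chr11:121236739-121236739. The HIF1A peak of 4% O2 replicate 1 covered 2420 bp, against 450 bp in 20% O2 replicate 1. The merged stretch around it held side peaks of HIF1A at both oxygen levels and of ARNT at 4% O2.

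**Figure D1:**
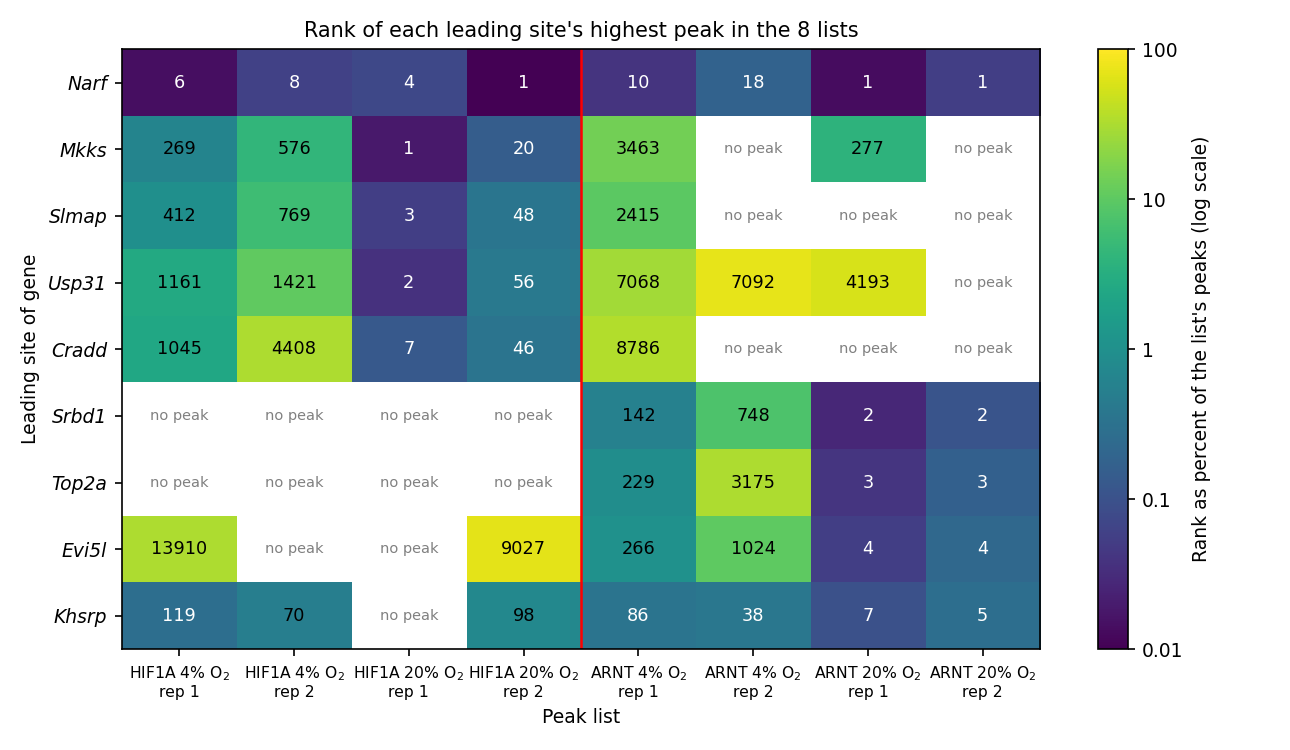
Rank of the highest peak of each leading site in the 8 lists, with rank 1 the highest, colours giving the rank as a percent of the list's peaks on a log scale, and white cells for no peak. Narf is filled across both antibodies, Mkks, Slmap, Usp31 and Cradd mainly on the HIF1A side, and Srbd1 and Top2a only on the ARNT side.

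At the 4 genes led by HIF1A, ARNT peaks were in 1 to 3 of its 4 lists, and none was in 20% O2 replicate 2. Mkks encodes a chaperonin-like protein linked to Bardet-Biedl syndrome and Slx4ip a partner of the SLX4 nuclease scaffold. The Mkks site (chr2:136891905-136892258) was centred 675 bp from the start of Mkks. Its HIF1A peaks ranked 269 and 576 at 4% O2, against 1 and 20 at 20% O2. ARNT had a peak there in replicate 1 alone, at rank 3463 at 4% O2 and 277 at 20% O2. HIF1A thus had the site in every list and ARNT in 1 list of each oxygen level. The other HIF1A region, at the Mkks promoter (chr2:136891437-136891692), had HIF1A percentiles of 87.65 and 48.07 at 4% O2, against 82.38 and 91.14 at 20% O2, and an ARNT peak only in 4% O2 replicate 1, at 52.04.

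Slmap, a membrane-anchored protein of the STRIPAK phosphatase complexes, had a single site in its whole window (chr14:26534868-26535210), centred 415 bp before its start. HIF1A peaks ranked 412 and 769 at 4% O2, against 3 and 48 at 20% O2. ARNT had 1 peak, in 4% O2 replicate 1 at rank 2415, and none at 20% O2. The window of 20 kb either side thus held no site besides the one at the start of Slmap.

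The Usp31 site (chr7:121707405-121707672) was centred 77 bp from the gene's start. HIF1A peaks ranked 1161 and 1421 at 4% O2, against 2 and 56 at 20% O2. ARNT peaks were in 3 lists, at percentiles of 71.67 and 28.52 at 4% O2 and 42.20 in 20% O2 replicate 1. Of the 4 sites led by HIF1A it was the only one with a peak in both ARNT lists at 4% O2.

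Cradd encodes a death-domain adaptor of the PIDDosome, the platform that activates caspase-2. Its leading site (chr10:95324032-95324242) was centred 1 bp from the gene's start. HIF1A peaks ranked 1045 and 4408 at 4% O2, against 7 and 46 at 20% O2, and ARNT had 1 peak, in 4% O2 replicate 1 at rank 8786. Cradd also had the most crowded window, with 15 of the 41 sites. A site in the gene (chr10:95182912-95183423) and another 6757 bp upstream of it (chr10:95330530-95331260) had peaks in all HIF1A lists and both ARNT lists of 20% O2, and both lacked a peak in ARNT 4% O2 replicate 2. The upstream site had HIF1A percentiles of 86.96 and 29.92 at 4% O2, against 97.96 and 93.86 at 20% O2. Its ARNT percentiles were 65.06 in replicate 1 at 4% O2, and 89.92 and 58.63 at 20% O2. The site in the gene was lower at 20% O2 than the upstream one, with HIF1A percentiles of 23.18 and 73.29 and ARNT percentiles of 29.88 and 21.79. At 4% O2 it had HIF1A percentiles of 92.76 and 77.11, and 77.29 in ARNT replicate 1. Both antibodies thus had peaks in both lists of 20% O2 inside and beside Cradd, while at its start only HIF1A did.

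Over the 5 highest HIF1A regions of 20% O2, Narf included, both ARNT lists had a peak at 2 at 4% O2, Narf and Usp31, against 15.4% of all 4504 HIF1A regions and 27.0% of the 100 highest. At 20% O2 both had one at 1 of 5, Narf, against 20.5% of all and 52.0% of the 100 highest. ARNT 4% O2 replicate 1 had a peak at 5 of 5, against 80.2% of all and 88.0% of the 100 highest, and replicate 2 at 2 of 5, against 15.9% and 28.0%. With 5 sites these counts stand beside the shares as a description. ARNT 4% O2 replicate 1 was on the lane of the HIF1A replicate 1 samples, and its list was longer than that of ARNT replicate 2. Both ARNT lists of 4% O2 were called against input 4. The part of the lane and the length in this split was not tested.

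**Figure D2:**
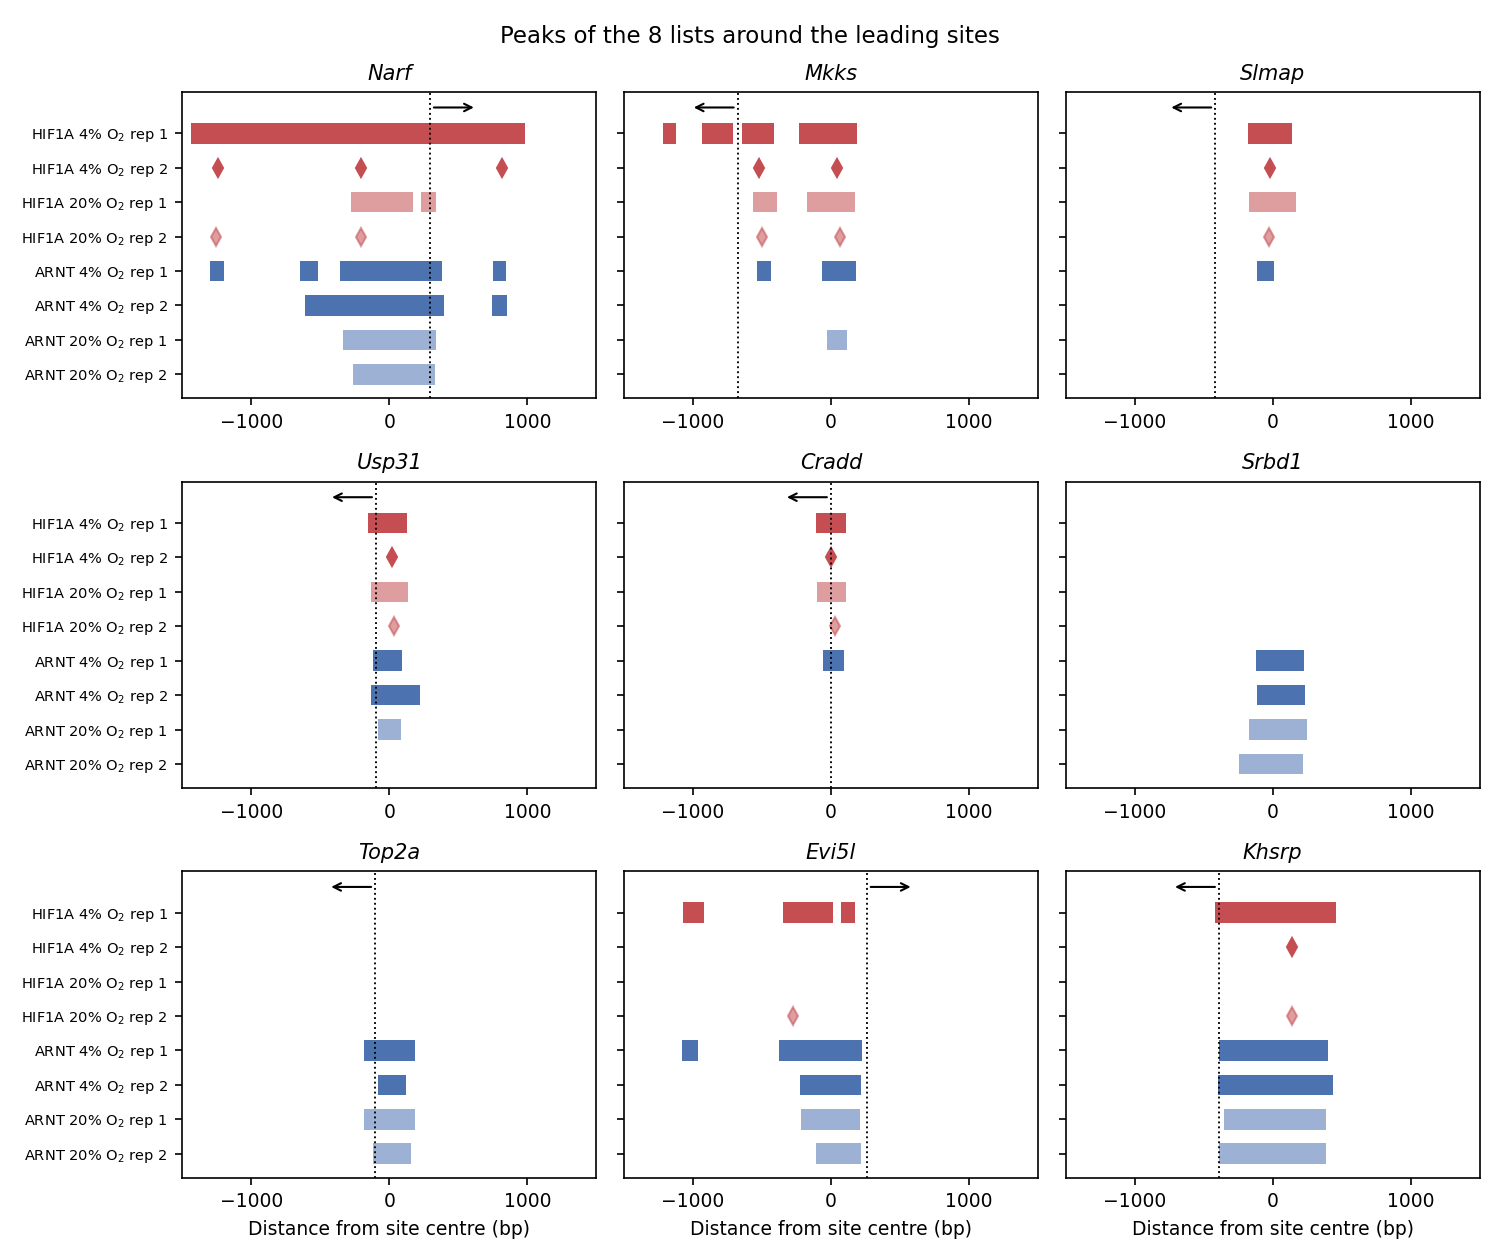
Peaks of the 8 lists around each leading site, by distance from the site's centre in bp, with bars for intervals, diamonds for 1 bp summits, red for HIF1A, blue for ARNT, dark for 4% O2 and pale for 20% O2. Dotted lines with arrows mark the start and direction of the gene, which Srbd1 lacks because it had no promoter entry. Peaks of both antibodies overlap in at least 1 list of each at all sites but Srbd1 and Top2a.

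The ARNT group divided into sites without HIF1A and sites with it. Srbd1 encodes a protein with an S1 RNA-binding domain. Its site (chr17:86150788-86151278) was centred 5817 bp past the higher coordinate of the gene's span, and whether that end is its start is not in the annotation used here. It was the one leading site farther than 1 kb from any gene end. ARNT peaks ranked 142 and 748 at 4% O2, against 2 and 2 at 20% O2. No HIF1A list had a peak at the site.

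The Top2a site (chr11:99024106-99024477) was centred 92 bp from the gene's start and covered its CCAAT-rich promoter. ARNT peaks ranked 229 and 3175 at 4% O2, against 3 and 3 at 20% O2, and no HIF1A list had a peak there. The intervals of ARNT replicate 1 had the same borders at 4% O2 and at 20% O2, with a width of 372 bp. Among all 1647 ARNT regions of 20% O2, 7.23% had no peak in any of the 4 HIF1A lists, and among the 100 highest 21.0% had none. Of the 5 sites led by ARNT, Srbd1 and Top2a were without one.

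Evi5l encodes a TBC-domain protein, of the family that acts on Rab GTPases. Its site (chr8:4166090-4166530) was centred 241 bp from the gene's start. ARNT peaks ranked 266 and 1024 at 4% O2, against 4 and 4 at 20% O2. HIF1A had peaks in 1 list per oxygen level, at percentiles of 67.43 in 4% O2 replicate 1 and 32.57 in 20% O2 replicate 2. The position of the latter, chr8:4166033, lay outside the site and overlapped it only through the widening by 75 bp.

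Khsrp encodes an RNA-binding protein that promotes the decay of messages with AU-rich elements. Its site (chr17:57031509-57032281) was centred 388 bp from the gene's start. ARNT peaks ranked 86 and 38 at 4% O2, against 7 and 5 at 20% O2. HIF1A peaks ranked 119 and 70 at 4% O2, and 98 in 20% O2 replicate 2, with none in 20% O2 replicate 1. The 2 HIF1A summits, at 4% and 20% O2, lay 1 bp apart. With Narf, Khsrp was the leading site that both antibodies had in all lists of 4% O2 at a percentile of at least 99.49. Both HIF1A lists of 4% O2 had a peak at 2 of the 5 sites led by ARNT, Narf and Khsrp, against 55.2% of all ARNT regions of 20% O2 and 40.0% of the 100 highest.

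At 4% O2, which played no part in the choice, each of the 9 leading sites had a peak in both lists of its own antibody. Over the 5 highest regions of each antibody, with Narf in both, these were 5 of 5 for HIF1A, against 56.5% of all HIF1A regions of 20% O2, and 5 of 5 for ARNT, against 32.1% of all ARNT regions. Among the 100 highest regions of 20% O2, which rank closer to the members, the share was 94.0% for HIF1A and 64.0% for ARNT. In position 8 of 9 leading sites were centred within 1 kb of a gene end, against 8.39% of all HIF1A regions and 32.1% of all ARNT regions of 20% O2. Of the 100 highest HIF1A regions 21.0% were, and of the 100 highest ARNT regions 63.0%. Where HIF1A replicate 2 had a summit at a leading site at both oxygen levels, at 6 sites, the summits were 0 to 25 bp apart with a median of 9.5 bp. Over the 6585 summits of 20% O2 with one of 4% O2 within 150 bp the median was 20 bp. Those are summits of any rank, whereas the 6 rank high at 20% O2, and summits of like rank were not compared.

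Peaks at the leading sites had medians above the median width of their list, though not every peak was wider. In ARNT 4% O2 replicates 1 and 2 their median widths were 349 and 399 bp, against list medians of 141 and 181 bp. In ARNT 20% O2 replicates 1 and 2 they were 419 and 469 bp, against list medians of 135 and 129 bp. In HIF1A replicate 1 they were 363 bp at 4% O2 and 343 bp at 20% O2, against 182 and 152 bp. The ARNT peak at Slmap in 4% O2 replicate 1 had 131 bp, below its list's median, and that at Mkks in 20% O2 replicate 1 had 143 bp, close to it. Width was not independent of the choice at 20% O2, since the score and the width of a peak come from the same reads.

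Beside the glycolysis genes Pgk1, Pfkl and Pgam1, whose sites led the lists of 4% O2, the order was not the same in every list. In the 4 lists of 4% O2 those 3 sites ranked 1 to 6 and none of the 9 leading sites ranked above them all. In HIF1A 20% O2 replicate 1 they ranked 969 to 3922, and Narf, Mkks, Slmap, Usp31 and Cradd all ranked above them. In HIF1A 20% O2 replicate 2 they ranked 3 to 8, and only Narf was above them. In ARNT 20% O2 they ranked 156 to 316 in replicate 1 and 106 to 477 in replicate 2, and Narf, Srbd1, Top2a, Evi5l and Khsrp were above them in both. The places of the 9 leading sites at 20% O2 describe the choice, since they were taken as the highest of these same lists. The 3 glycolysis sites were set beside them as the highest of 4% O2. Their lead at 4% O2 thus describes that choice as well.

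**Figure D3:**
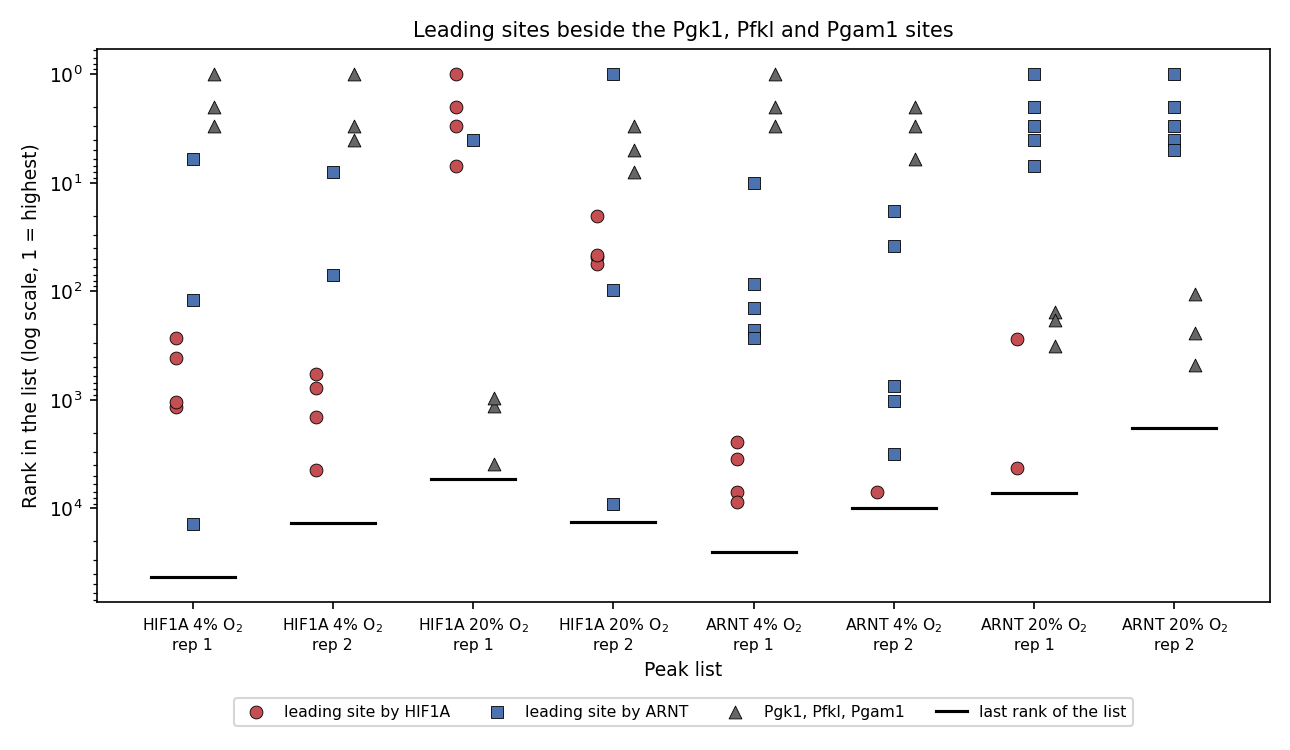
Ranks of the leading sites and of the Pgk1, Pfkl and Pgam1 sites in each list on a log axis with the highest rank at the top, with circles for sites led by HIF1A, squares for sites led by ARNT including Narf, triangles for the glycolysis sites and a line at the last rank of the list. The glycolysis sites rank 1 to 6 in the lists of 4% O2 and 969 to 3922 in HIF1A 20% O2 replicate 1.

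Around the genes, within the span plus 20 kb either side, the 8 lists held 134 peaks in 41 merged sites. HIF1A had 38 and 16 peaks at 4% O2, against 11 and 15 at 20% O2, and ARNT 24 and 12 at 4% O2, against 11 and 7 at 20% O2, for replicates 1 and 2. Of the 41 sites 1 had no peak at 4% O2 (2.44%, against 3.12% of all 48072 sites of the 8 lists) and 25 had none at 20% O2 (61.0%, against 66.7%), both near the share of all sites. Both lists of both antibodies had 3 sites at 4% O2, at Narf, Usp31 and Khsrp (7.32%, against 12.0%), and 3 at 20% O2, 1 at Narf and 2 at Cradd (7.32%, against 1.94%). HIF1A alone, with both of its lists and no ARNT peak, held 2 sites at 4% O2, both at Cradd (4.88%, against 2.79%). At 20% O2 it held 4, at Mkks, Slmap and Cradd (9.76%, against 3.55%). ARNT alone held 3 sites at 4% O2, at Srbd1, Top2a and in the Khsrp window (7.32%, against 0.364%), and 2 at 20% O2, at Srbd1 and Top2a (4.88%, against 0.801%). The windows were chosen for sites in both lists of an antibody at 20% O2, so nothing is read from the shares of that level. At 4% O2 the 3 sites of both antibodies, and those of ARNT alone at Srbd1 and Top2a, are leading sites. The shares of these classes thus also depend on the choice and are not read. A lone list supported 15 sites, and only 1 site was in all 8.

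**Figure D4:**
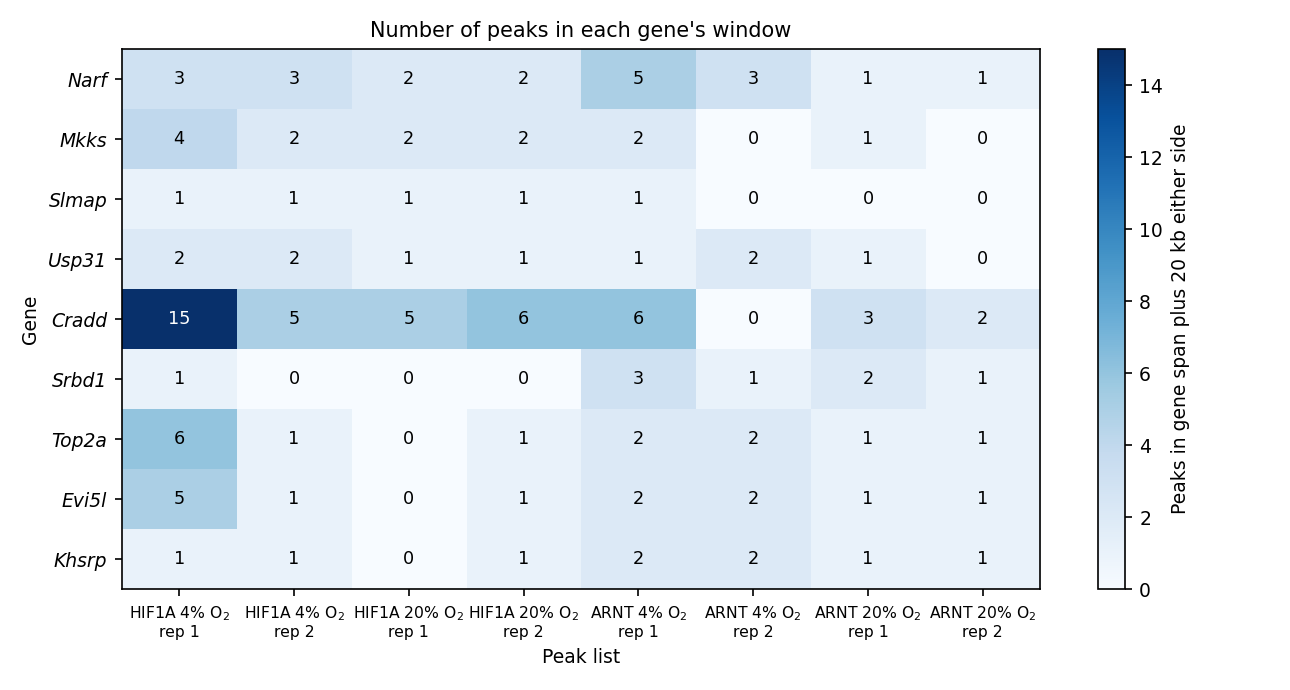
Number of peaks of each list within the gene span plus 20 kb either side, for the 9 genes, printed in each cell and coloured from light (0) to dark (15). Cradd has up to 15 peaks in a list and Slmap at most 1, and HIF1A 20% O2 replicate 1 has no peak at Srbd1, Top2a, Evi5l or Khsrp.

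Paralogs and partners of the 9 genes had regions of either antibody mainly at 4% O2, where each list was longer than its counterpart of 20% O2. The list held 18 genes: Ciao3, Bbs10, Bbs12, Cct2, Sike1, Strn, Strn3, Strn4, Usp43, Pidd1, Casp2, Ripk1, Supt6, Top2b, Top1, Evi5, Fubp1 and Fubp3. A HIF1A region in both lists lay within 20 kb of 11 of 18 at 4% O2, against 40.6% of all protein-coding genes, and of 1 of 18 at 20% O2, against 12.8%. An ARNT region lay near 8 of 18 at 4% O2, against 33.7%, and near 1 of 18 at 20% O2, against 9.24%. At 20% O2 these were Fubp3, a relative of Khsrp, for HIF1A at a mean percentile of 34.15, and Ciao3, a relative of Narf in iron-sulfur protein assembly, for ARNT at 86.91. Top2b, the paralog of Top2a, had an ARNT region at 4% O2 at 22.71 and none at 20% O2. Pidd1, which binds Cradd in the PIDDosome, had regions of both antibodies at 4% O2, at 74.85 for HIF1A and 45.08 for ARNT, and none at 20% O2. The 9 chosen genes had a HIF1A region in 8 of 9 at 4% O2 and 5 of 9 at 20% O2, and an ARNT region in 6 of 9 at each level. At 20% O2 these counts describe the choice, since 5 genes were picked for a HIF1A region there and 5 for an ARNT region. They are not set against the counts of the partners.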

How the data were processed

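ChIP-seq peak lists of 8 samples were used. The submitters' processing notes name BWA, Picard and MACS2, and build mm10. No version of theirs is given in the sources used here. The authors called peaks per sample against input 5 for HIF1A replicate 2 and input 4 for the others, per the names of the deposited lists. The deposited score of each peak has no named scale and was used only within its list. No header or label gives read counts, so the depth of each sample is unknown and peak values carry no interval.

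Percentiles were the percent of a list's peaks with a score at or below that of the peak. Overlaps needed at least 1 bp. A region had peaks in both lists of a group, and a site was a merged stretch of peaks of all 8 lists. Genes and promoters were from RefSeq, GRCm38.p6, and in 1683 of 1683 overlapping promoter pairs of opposite strand the sequences matched. Region and site functions were tested on simulated lists. Python 3.11.15, pandas 2.3.3 and numpy 2.4.6 were used.

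The named genes were the 9 chosen genes, the gene nearest a leading site, the next region of each antibody, Pgk1, Pfkl and Pgam1, and up to 8 partners with a region at 20% O2. Slx4ip, Top2b, Pidd1 and the genes of the closing observations were named in addition, after their values were seen. The genes, lists and rules were all chosen with earlier results of these data known. No test was run, because the genes were chosen by the values at 20% O2 and scores are not comparable between lists. Shares over all regions, sites, genes or promoters are given as background instead. Alternatives were other windows, summit widths, overlaps, the 1808 highest peaks of each list and single replicates.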

Additional observations from a re-analysis of the deposited data

How the results depend on the processing

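Of 98 recomputed values 74 stayed within 1.5 times the reported count and 24 moved further. The leading sites with a peak in both lists of their antibody at 4% O2 numbered 9 under the other summit widths and overlap and with either replicate alone, and 7 with the 1808 highest peaks of each list. Those near a gene end numbered 8 in each of these settings. Leading sites were not recomputed with other gene windows. With 5 kb windows sites of ARNT alone numbered 1 at 4% O2 and 1 at 20% O2. With 50 kb windows the peaks numbered 259, the sites of both antibodies at 4% O2 10 and those of HIF1A alone 4. With the 1808 highest peaks the window peaks numbered 49, and partners with a region numbered 0 for HIF1A at 4% O2, 0 for HIF1A at 20% O2 and 0 for ARNT at 4% O2. With one replicate left out, sites of both antibodies numbered 6 (without replicate 1) and 17 (without replicate 2) at 4% O2, against 5 and 6 at 20% O2. Sites of HIF1A alone then numbered 8 and 19 at 4% O2, against 8 and 4 at 20% O2, and those of ARNT alone 5 and 4 at 4% O2, against 2 and 5 at 20% O2. Leading sites in every remaining list numbered 2 and 3. Partners with a region numbered 11 and 18 for HIF1A at 4% O2, 9 and 1 for HIF1A at 20% O2, 12 and 14 for ARNT at 4% O2 and 1 and 6 for ARNT at 20% O2. Asking for 1 list in place of both is a looser rule by construction. The cause of the other moves was not tested. No paired analysis was possible because the results come from no test.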

Other observations

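Of the 41 sites in the windows, 14 lay nearest to a gene other than the 9 chosen ones, and 1 of these 14 had a peak at 20% O2, a HIF1A replicate 2 summit 72 bp from an end of Igfbp4, which encodes a binding protein of insulin-like growth factors. Igfbp4 had 4 further sites in the Top2a window at 4% O2, each with a peak of HIF1A 4% O2 replicate 1 and at percentiles of 13.22 to 66.02 there. A site 88 bp from an end of Foxk2, a forkhead transcription factor gene next to Narf, had a HIF1A percentile of 71.66 in 4% O2 replicate 1 and ARNT percentiles of 23.65 and 37.39 at 4% O2. A site 402 bp from an end of the connexin gene Gjd3 had HIF1A percentiles of 72.07 and 10.75 at 4% O2 and an ARNT percentile of 59.08 in 4% O2 replicate 2. A site of ARNT alone lay 124 bp from an end of Gtf2f1, a subunit gene of the general transcription factor TFIIF, at percentiles of 0.68 and 8.58 at 4% O2.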
